A study of Sus scrofa with 24 samples.

Results

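FMO1 and FMO5, members of the family of flavin-containing monooxygenases, were described in the livers of 24 pigs that had been given testosterone esters, nandrolone or no steroid. They are the rows whose gene symbol was FMO1 or FMO5, picked with earlier results of these data known, and are 2 of the 13463 genes in the deposited tables. Both were found, and both passed the filter on low counts in every comparison. FMO2 and FMO4 of the same family are given beside the members.

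Flavin-containing monooxygenases are enzymes of the endoplasmic reticulum that carry FAD, take electrons from NADPH and add an oxygen atom from molecular oxygen to nitrogen or sulfur atoms of drugs, alkaloids and dietary amines. FMO1 is the classical pig liver enzyme of this family, from which much of its chemistry was first worked out, and it also oxidizes hypotaurine to taurine. FMO5 is unusual in the family, since it acts poorly on typical amine substrates and oxidizes ketones to esters (Baeyer-Villiger oxidation). Levels of FMO1 in rodent liver are known to differ with sex steroids.

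The pigs were healthy crossbred fattening animals, with 1 liver library per pig. Of them, 8 received Sustanon, a mixture of testosterone esters, at 4 mg/kg (3 castrated boars, 3 sows and 2 uncastrated boars). A further 8 received Myodin, a nandrolone ester that the study spells Myodine, at 5 mg/kg (2 castrated boars, 3 sows and 3 uncastrated boars), and 8 were untreated controls (3 castrated boars, 3 sows and 2 uncastrated boars). Both preparations were injected repeatedly into muscle in an oil vehicle, and the study's methods mention no injection of vehicle alone into controls. The animals labelled sows are the young females that the study calls gilts. Uncastrated boars normally make testosterone of their own, and hormone levels were not analysed here. Each group was kept in its own pen and the controls in another room, so that treatment and housing cannot be told apart, and Sustanon and Myodin differ in dose as well as in steroid.

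Counts summed to between 9267780 and 14017276 reads per library, and the 10 most abundant genes took between 20.04% and 32.5% of them. The Y-linked gene KDM5D went against the labelled class in 3 libraries, all of them controls. The library labelled control castrated boar 15 had 0 counts, and the libraries labelled control sow 16 and control sow 18 had 35 and 95. For this reason castrated boars and sows were compared together, and the tests of FMO1 and FMO5 for each steroid against control are also given without these 3 libraries. They are called by their labels throughout. None of the 3 carried the label of an uncastrated boar. Among controls labelled castrated boar or sow, libraries 13, 14, 16 and 18 held KDM5D reads and libraries 15 and 17 held none. The labels give 3 castrated boars and 3 sows there, and from which pigs the 3 libraries came was not tested. Hepatocyte transcripts were abundant in every library, with the 4 measured members of an 8-gene marker list (ALB, APOA1, TTR and F2) summing to between 76807 and 183528 TPM (transcript abundance corrected for gene length and library total).

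FMO5 lies on another chromosome than FMO1, FMO2 and FMO4. In the Sscrofa11.1 assembly, RefSeq places FMO5 (ENSSSCG00000006702) on chromosome 4, at 100336769-100372744. FMO1 (ENSSSCG00000015268) lies on chromosome 9, at 63860957-63895086, between FMO2 and FMO4. FMO2 ends 3348 bases before FMO1 starts, and FMO4 starts 13759 bases after FMO1 ends. How the authors' counting treated reads shared by such related genes is not given in the sources used here, so a small exchange of reads between members of the family cannot be told apart from their own signal.

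FMO1 rose with Sustanon and FMO5 fell, while FMO4 did not pass the test in either direction. FMO1 is given below in CPM (read counts relative to the library's total, with that total scaled by TMM factors), values that compare 1 gene between pigs. In the libraries labelled control castrated boars 13, 14 and 15 it stood at 467, 1062 and 1151 CPM, and in those labelled control sows 16, 17 and 18 at 783, 866 and 424. The control uncastrated boars 25 and 27 had 1020.1 and 1243 CPM. The highest control was thus an uncastrated boar. By label, control castrated boars overlapped control sows and control uncastrated boars. The sows lay below the uncastrated boars, a difference that was not tested.

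With Sustanon, FMO1 stood at 1748, 4161 and 781 CPM in castrated boars 1, 2 and 3. Sustanon sows 4, 5 and 6 had 3758, 8377 and 4770 CPM. Sustanon uncastrated boars 19 and 20 had 7302 and 5023 CPM. Of the 8 Sustanon livers, 7 lay above every control, and the exception, castrated boar 3, lay within the control range. With Myodin, castrated boars 8 and 9 had 792 and 667 CPM and sows 10, 11 and 12 had 704, 811 and 642 CPM, all inside the control range. The Myodin uncastrated boars differed widely among themselves, with 786 CPM in boar 22, 6515 in boar 23 and 2987 in boar 24.

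**Figure D1:**
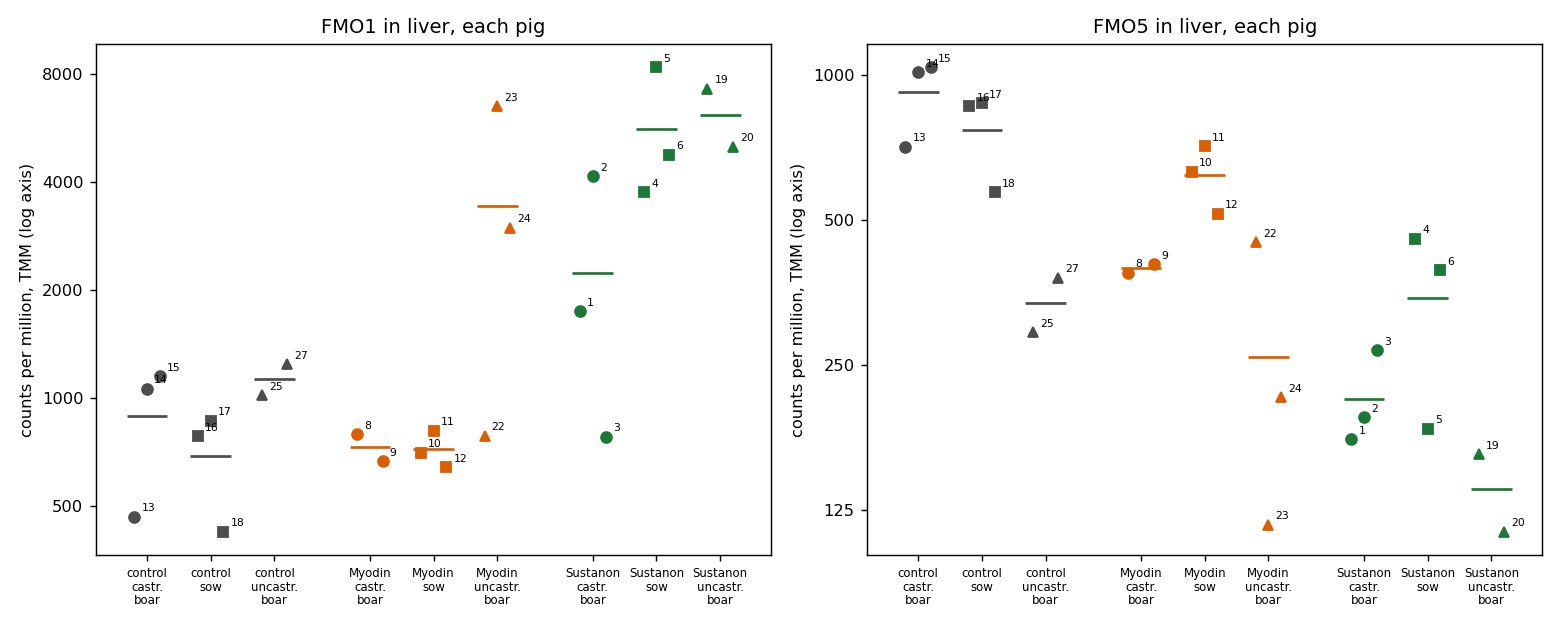
FMO1 (left) and FMO5 (right) in each pig, as TMM-scaled CPM on a log axis, by treatment and castration class. Points are single pigs with their numbers and lines are group means. For FMO1, 7 of 8 Sustanon pigs and Myodin boars 23 and 24 lie above all controls, and for FMO5 every Sustanon castrated boar and sow lies below every control of those classes.

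Ordered by the mean of the labelled groups, FMO1 ran from control sows (691 ± 235 CPM, SD, n = 3), Myodin sows (719 ± 85.6, n = 3) and Myodin castrated boars (729 ± 88.6, n = 2) to control castrated boars (894 ± 372, n = 3) and control uncastrated boars (1132 ± 158, n = 2). Above these came Sustanon castrated boars (2229.8 ± 1741 CPM, SD, n = 3), Myodin uncastrated boars (3429.5 ± 2889.9, n = 3), Sustanon sows (5635 ± 2428, n = 3) and Sustanon uncastrated boars (6162 ± 1611, n = 2). Every pair of neighbours in this order overlapped in its single pigs. The control sow and control castrated boar means include libraries 15, 16 and 18. Without these 3, control castrated boars averaged 765 CPM (SD 421, n = 2) and 1 control sow, sow 17, was left at 866 CPM, so that these labelled groups change places. The spread between pigs of a group was widest where the mean was high.

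Over all pigs, FMO1 averaged 4490.0 CPM with Sustanon (SD 2544, n = 8) and 877 CPM in controls (SD 304, n = 8). It rose 5.12-fold, a log2 fold change of 2.36 with a standard error of 0.51 and a 95% interval of 1.31 to 3.40 (edgeR quasi-likelihood test, adjusted p = 0.0114). In this comparison 420 of 8279 tested genes passed the test, or 5.07%, with 3.39% higher and 1.68% lower. Both members passed, 1 in each direction. Among castrated boars and sows alone, FMO1 averaged 3933 CPM with Sustanon (SD 2655, n = 6) and 792 in controls (SD 299.5, n = 6). The log2 fold change there was 2.29 (SE 0.45, edgeR adjusted p = 0.00387), against a background of 5.43% of 8754 tested genes, and 5 of the 6 Sustanon pigs lay above all 6 controls. Without control libraries 15, 16 and 18 the sizes were nearly the same, at 2.27 over all pigs and 2.28 in castrated boars and sows, but neither passed (edgeR adjusted p = 0.116 and 0.0710). In bulk liver, fewer cells of a type and less RNA per cell cannot be told apart.

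FMO5 ran the opposite way. The libraries labelled control castrated boars 13, 14 and 15 had 708, 1012 and 1035 CPM, and those labelled control sows 16, 17 and 18 had 859, 873 and 571. Control uncastrated boars 25 and 27 had 292 and 379.6 CPM, below every other control. With Sustanon, FMO5 stood at 175, 195 and 269 CPM in castrated boars 1, 2 and 3, at 457, 185 and 393 in sows 4, 5 and 6, and at 164 and 113 in uncastrated boars 19 and 20. Every Sustanon castrated boar and sow lay below every control of those classes, and CPM of the groups did not overlap for 3.22% of tested genes in that comparison. Over all pigs, 6 of 8 Sustanon livers lay below all controls, and the exceptions, sows 4 and 6, lay above both control uncastrated boars.

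With Myodin, FMO5 stood at 388 and 404 CPM in castrated boars 8 and 9, at 629, 711 and 515 in sows 10, 11 and 12, and at 449, 117 and 215 in uncastrated boars 22, 23 and 24. Myodin castrated boars and sows thus fell between the other treatments in part, since 3 of the 5 lay below all 6 controls of those classes and the highest, sow 11, lay within the control range. By the mean of the labelled groups, FMO5 ran from Sustanon uncastrated boars (138 ± 35.9 CPM, SD, n = 2), Sustanon castrated boars (213 ± 49.2, n = 3) and Myodin uncastrated boars (260.2 ± 171, n = 3) to control uncastrated boars (336 ± 61.7, n = 2), Sustanon sows (345 ± 142, n = 3) and Myodin castrated boars (396 ± 11.4, n = 2). The highest means were those of Myodin sows (618 ± 98.7 CPM, SD, n = 3), control sows (767 ± 171, n = 3) and control castrated boars (919 ± 182, n = 3). Without libraries 15, 16 and 18, control castrated boars averaged 860.3 CPM (SD 215, n = 2) and sow 17 had 873, again in the reverse order. Neighbours in this order overlapped, apart from the lowest pair and the step from Myodin castrated boars to Myodin sows, which were not tested.

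Over all pigs, FMO5 averaged 244 CPM with Sustanon (SD 121, n = 8) and 716 in controls (SD 279.97, n = 8). It fell 2.94-fold, with a log2 fold change of -1.56 (SE 0.33, 95% interval -2.24 to -0.87, edgeR adjusted p = 0.0114). The means in castrated boars and sows were 279 CPM with Sustanon (SD 119.6, n = 6) and 843 in controls (SD 178, n = 6), and the log2 fold change was -1.61 (SE 0.29, 95% interval -2.20 to -1.01, edgeR adjusted p = 0.00221). Without control libraries 15, 16 and 18 the fall in castrated boars and sows still passed, whereas over all pigs it measured -1.43 and did not (edgeR adjusted p = 0.116).

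With Myodin, neither member passed over all pigs. FMO1 measured 0.99 against control on the log2 scale (SE 0.49, 95% interval -0.02 to 1.99, edgeR adjusted p = 0.687), and FMO5 measured -0.74 (SE 0.33, 95% interval -1.42 to -0.07, edgeR adjusted p = 0.634). The FMO1 value rested on Myodin boar 23, without which it was 0.27 (edgeR adjusted p = 0.937). No gene passed in this comparison (0 of 8279, a background of 0%), while edgeR gave 597 genes an unadjusted p under 0.05, FMO5 among them, and DESeq2 called 1 gene. FMO1 measured -0.12 with Myodin in castrated boars and sows (SE 0.45, 95% interval -1.06 to 0.81, edgeR adjusted p = 0.953), and FMO5 measured -0.66 (SE 0.30, 95% interval -1.28 to -0.05, edgeR adjusted p = 0.452), where 0.0914% of genes passed. With libraries 15, 16 and 18 left out, FMO1 measured 0.90 and FMO5 -0.61 with Myodin over all pigs (edgeR adjusted p = 0.9998 for both), and -0.14 and -0.70 in castrated boars and sows (edgeR adjusted p = 0.990 and 0.861). With all libraries, the interval of FMO1 in castrated boars and sows lies below the fold measured with Sustanon, although the doses of the preparations differ.

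Sustanon and Myodin were also set against each other, with their unequal doses and different steroids. FMO1 was higher with Sustanon by 2.42 on the log2 scale in castrated boars and sows (SE 0.48, 95% interval 1.42 to 3.42, edgeR adjusted p = 0.0114), against a background of 2.43% of tested genes. FMO5 measured -0.94 there (SE 0.29, edgeR adjusted p = 0.0798), and 4 of 6 Sustanon livers lay below all 5 Myodin livers. This FMO5 difference passed in the fits without Myodin boar 22 or 23 (edgeR adjusted p = 0.0396 and 0.0472). Both are uncastrated and belong to neither group compared, so leaving them out changes only the shared fit. Over all pigs FMO1 measured 1.37 (SE 0.49, edgeR adjusted p = 0.150) and FMO5 measured -0.81 (SE 0.33, edgeR adjusted p = 0.188), where 0.664% of genes passed. Without Myodin boar 23 the FMO1 value was 2.09, and it then passed (edgeR adjusted p = 0.00644). With castration class as a term in the model both members passed, FMO1 at 1.84 (edgeR adjusted p = 0.0198) and FMO5 at -0.92 (edgeR adjusted p = 0.0264).

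**Figure D2:**
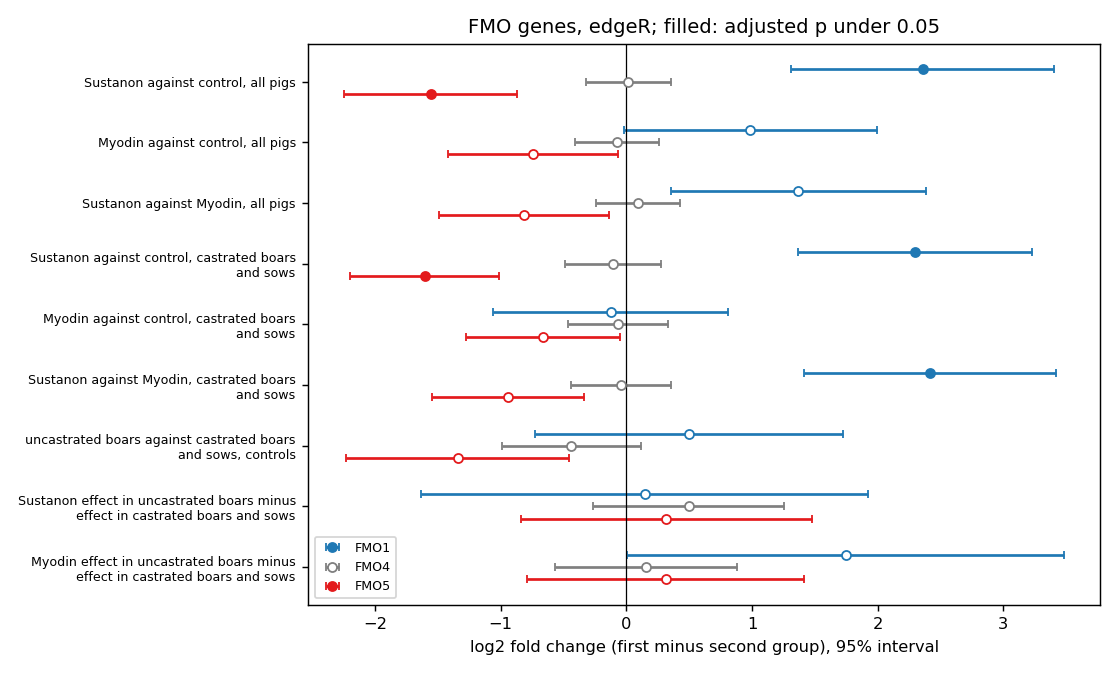
Log2 fold changes of FMO1, FMO4 and FMO5 in the 9 comparisons, with 95% intervals from edgeR. Filled points have an adjusted p under 0.05. FMO1 is filled at 2.36, 2.29 and 2.42 and FMO5 at -1.56 and -1.61, and no point of FMO4 is filled.

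The presence of testes was examined in the untreated pigs, where uncastrated boars were compared with castrated boars and sows. FMO5 averaged 336 CPM in the 2 uncastrated boars and 843 CPM in the other 6 controls, a log2 fold change of -1.34 (SE 0.43, 95% interval -2.23 to -0.45). This did not pass (edgeR adjusted p = 0.127), although both uncastrated boars lay below all 6 others, as groups failed to overlap for 19.4% of genes here. With DESeq2 the same difference passed (adjusted p = 0.0264). It measured -1.38 without control libraries 15, 16 and 18 (edgeR adjusted p = 0.223). FMO1 measured 0.50 (SE 0.59, 95% interval -0.72 to 1.72, edgeR adjusted p = 0.757). In this comparison 1.43% of tested genes passed.

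The difference between the responses of uncastrated boars and the other pigs was tested as an interaction. For Sustanon it measured 0.15 for FMO1 (SE 0.86, 95% interval -1.63 to 1.92, edgeR adjusted p = 0.984) and 0.32 for FMO5 (SE 0.56, 95% interval -0.84 to 1.48, edgeR adjusted p = 0.934), with 0.0457% of genes passing. For Myodin the interaction measured 1.74 for FMO1 (SE 0.84, edgeR adjusted p = 0.417) and 0.31 for FMO5 (SE 0.53, edgeR adjusted p = 0.852), with 0.0914% of genes passing. The FMO1 value rested in large part on Myodin boar 23, since it measured 0.88 without that pig. With 2 or 3 uncastrated boars per treatment these intervals are wide.

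Levels of the members relative to each other were compared in TPM, which accounts for gene length. FMO1 ranged from 402 to 6678 TPM and ranked between 17 and 279 among all genes of a library, counted from the highest. FMO5 ranged from 44.1 to 359 TPM. In control castrated boars the ratio of FMO1 to FMO5 was 1.41, 2.34 and 2.51 in boars 13, 14 and 15, and in control sows it was 1.97, 2.18 and 1.70 in sows 16, 17 and 18. Control uncastrated boars 25 and 27 had ratios of 7.80 and 7.24, above every other control.

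Sustanon castrated boars 1, 2 and 3 had ratios of 22.4, 47.2 and 6.42. Ratios in Sustanon sows 4, 5 and 6 were 18.6, 101 and 26.5. In Sustanon uncastrated boars 19 and 20 they were 99.9 and 102. All but castrated boar 3 were above every control, and boar 3 was above the castrated boars and sows among the controls. Myodin castrated boars 8 and 9 had ratios of 4.51 and 3.64, Myodin sows 10, 11 and 12 had 2.46, 2.496 and 2.76, and Myodin uncastrated boars 22, 23 and 24 had 3.87, 124 and 31.6. The highest ratio of the 24 livers was that of a Myodin boar, boar 23.

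**Figure D3:**
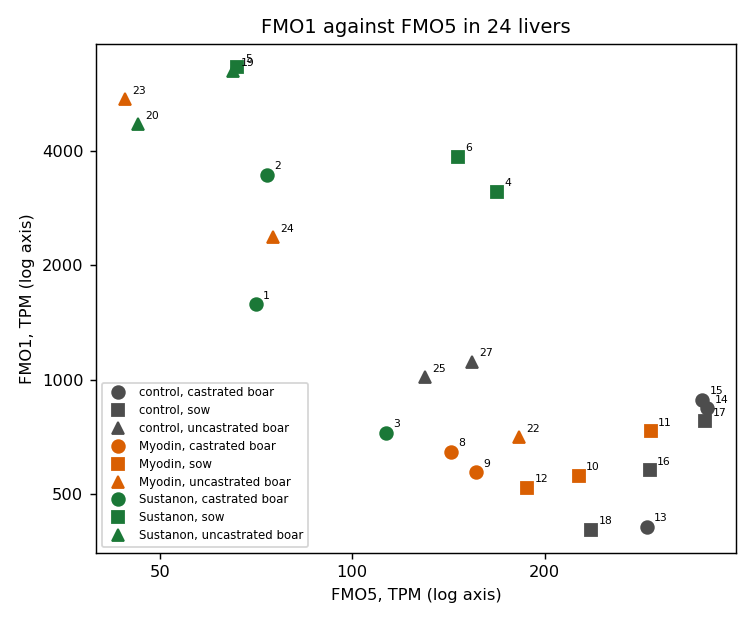
FMO1 against FMO5 in each of the 24 livers, both in TPM on log axes, with colour for treatment and shape for castration class. In FMO1, 7 of 8 Sustanon pigs lie above every control, and in FMO5 6 of 8 lie below every control. Myodin boars 23 and 24 lie above all controls in FMO1 and below them in FMO5, and control uncastrated boars 25 and 27 have less FMO5 than the other controls.

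As a single value per pig, the difference of FMO1 and FMO5 in log2(TPM + 1) averaged 5.19 ± 1.44 with Sustanon (SD, n = 8), 2.74 ± 2.07 with Myodin (SD, n = 8) and 1.46 ± 0.93 in controls (SD, n = 8). Sustanon exceeded control by 3.72, a 13.2-fold change of the ratio, in an exact two-sided permutation test (p = 0.000466, adjusted over 3 comparisons p = 0.0014). Sustanon exceeded Myodin by 2.45, or 5.45-fold (exact permutation p = 0.0190, adjusted p = 0.0284). Without any single one of Sustanon pigs 5, 19 and 20 or Myodin sows 10, 11 and 12 this last difference was 2.24 to 2.26 and did not pass (exact permutation, adjusted p = 0.0517 to 0.0522). Myodin exceeded control by 1.28 (exact permutation p = 0.140, adjusted p = 0.140). In castrated boars and sows only, Myodin exceeded control by 0.63 (exact permutation p = 0.0130, adjusted over 3 comparisons p = 0.0130). With libraries 15, 16 and 18 also left out, a choice made after seeing the data, the difference was 0.67, in 5 Myodin pigs and 3 controls (exact permutation p = 0.0357, the smallest that these numbers allow, adjusted over 3 comparisons p = 0.0357). Comparisons with control share the same 8 control pigs. Without control libraries 15, 16 and 18, Sustanon exceeded control by 3.46 (exact permutation, adjusted p = 0.0140) and Myodin by 1.01 (exact permutation, adjusted p = 0.382).

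The relation of the members across the pigs of a treatment was examined after the values had been seen, in 3 sets of 8 pigs on log2(TPM + 1), by exact permutation tests. Among Myodin pigs Pearson's r was -0.91 (exact permutation p = 0.0131, adjusted p = 0.0392) and Spearman's rho was -0.55 (exact permutation p = 0.171). Without boars 23 and 24 r was 0.31, so the relation rested on these pigs. Among controls r was -0.33 (exact permutation p = 0.424) and rho was -0.21 (exact permutation p = 0.619). Among Sustanon pigs r was -0.35 (exact permutation p = 0.404) and rho was -0.60 (exact permutation p = 0.132). Leaving out the 2 pigs farthest from the median FMO1 gave r of -0.62 in controls and -0.63 with Sustanon. No correlation was computed among controls without libraries 15, 16 and 18, which leaves 5 pigs.

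The mixture of FMO1, FMO2, FMO4 and FMO5 transcripts followed from these levels. FMO1 made up 54.0% to 69.6% of the summed TPM of these 4 genes in control castrated boars and sows, and 85.3% and 85.7% in control uncastrated boars 25 and 27. With Sustanon its share ran from 81.3% in castrated boar 3 to 98.5% in sow 5. FMO5 took between 27.8% and 38.2% in control castrated boars and sows, and between 0.962% and 12.7% with Sustanon. In Myodin castrated boars and sows, FMO1 took between 66.0% and 78.5% and FMO5 between 17.4% and 27.3%. Among Myodin uncastrated boars, FMO1 took 76.8% in boar 22, 98.5% in boar 23 and 95.4% in boar 24, and FMO5 19.8%, 0.792% and 3.02%. Boar 23 thus had the highest FMO1 share and the lowest FMO5 share of the 24 livers. The summed level of the 4 genes ran from 707 to 1300.1 TPM in controls, from 738 to 5576 with Myodin and from 891 to 6779 with Sustanon. FMO1 was the most abundant of the 4 in every liver. Without libraries 15, 16 and 18, FMO1 took 54.0% to 67.6% and FMO5 29.0% to 38.2% in control castrated boars and sows.

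**Figure D4:**
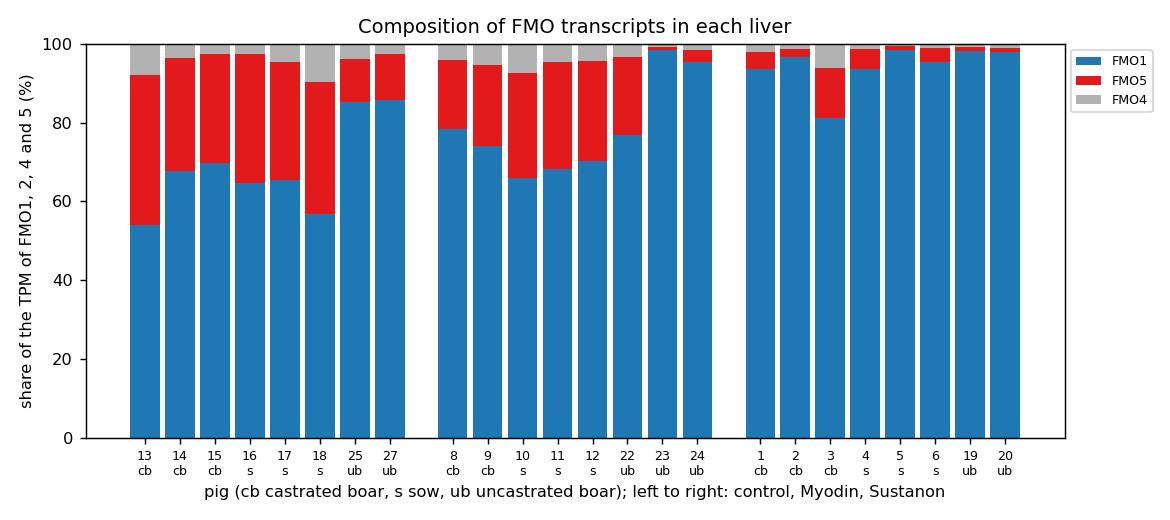
Share of each gene in the summed TPM of FMO1, FMO2, FMO4 and FMO5, in percent, with 1 bar per pig ordered by treatment and castration class. FMO2 takes at most 0.0438% and is too small to be drawn. FMO1 fills 54.0% to 85.7% of the bars of controls and 81.3% to 98.5% of those of Sustanon pigs.

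FMO4 and FMO2 flank FMO1 on chromosome 9. FMO4 did not pass with Sustanon, and FMO2 was tested only in the fit of 6 groups, where it did not pass. FMO4, a form of unclear function, ranged from 23.3 to 68.3 TPM over all livers and measured 0.02 (SE 0.16, 95% interval -0.32 to 0.35, edgeR adjusted p = 0.977). FMO2, which is best known from lung, was near the limit of detection, with 1 to 18 counts per library and at most 0.53 TPM. It passed the count filter in the fit of 6 groups but not in that of 3 treatments, so it was not tested over all pigs. There it averaged 0.93 CPM with Sustanon and 0.32 in controls, and 5 of 8 Sustanon livers lay above all controls and 1 below. In castrated boars and sows it measured 1.23 with Sustanon (SE 0.62, edgeR adjusted p = 0.291). Its highest count, 18, came from Sustanon uncastrated boar 19. Sustanon pigs 2, 5, 6 and 20 had 15, 13, 12 and 13 counts, and Myodin boar 23 had 10. All of these had FMO1 above every control. So did Sustanon pigs 1 and 4 and Myodin boar 24, with 1, 3 and 8 counts of FMO2. Myodin castrated boar 8, a pig with low FMO1, had 13. The relation of FMO2 to FMO1 was not tested.

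Genes that supply the cofactors of these enzymes were counted in the same way, with 5.07% of all tested genes passing with Sustanon over all pigs. Of 7 listed genes of FAD and riboflavin supply, 5 were tested, and 0 passed in either direction with Sustanon over all pigs or in castrated boars and sows. FLAD1, which makes FAD, measured -0.18 (edgeR adjusted p = 0.350), and ACP5, an acid phosphatase, measured -0.30 (edgeR adjusted p = 0.560). Of 12 genes of NADPH supply, 8 were tested and 0 passed. With so few genes, a count of 0 is near that background. TALDO1, of the pentose phosphate pathway, measured -0.29 (edgeR adjusted p = 0.0958), and NADK, the kinase that makes NADP from NAD, measured -0.48 (edgeR adjusted p = 0.110; it passed at -0.65 without Sustanon castrated boar 1). The median log2 fold change was -0.07 for the FAD list and -0.09 for the NADPH list, and -0.01 over all genes tested.

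Genes around substrates of the family were read against the 5.07% of all tested genes that passed with Sustanon over all pigs. In the list of hypotaurine and taurine metabolism, 4 of 10 were tested and 1 fell over all pigs, with a list median of -0.51. The gene that fell was MPST, a sulfurtransferase of cysteine breakdown, at -1.11 (SE 0.31, edgeR adjusted p = 0.0347), with 10.6 CPM with Sustanon and 22.99 in controls. Without control library 15 it measured -0.76 and did not pass (edgeR adjusted p = 0.1004), and 9 of the 24 fits that left out 1 pig lost this call. In castrated boars and sows, with library 15 among the controls, MPST measured -1.31 and passed (edgeR adjusted p = 0.0243). The other members went both ways without passing. CDO1, the cysteine dioxygenase on the route to hypotaurine, measured 0.78 (edgeR adjusted p = 0.167), CSAD, which makes hypotaurine, -0.96 (edgeR adjusted p = 0.307) and CTH, which makes cysteine, -0.056 (edgeR adjusted p = 0.949). Of 12 genes of choline and methylamine metabolism, 8 were tested, 2 rose and 0 fell, with a list median of 0.04. CHKA, a choline kinase, rose by 0.65 on the log2 scale (edgeR adjusted p = 0.0155) and SLC44A1, a choline transporter, by 0.38 (edgeR adjusted p = 0.0177). In castrated boars and sows CHKA measured 0.53 and did not pass (edgeR adjusted p = 0.0529), while SLC44A1 passed at 0.38 (edgeR adjusted p = 0.0341).

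Of 22 listed genes of other flavin-dependent oxidoreductases, 13 were tested, 2 rose, 1 fell and 10 did not pass, with a median of -0.02 and a background of 5.07%. MAOB, a monoamine oxidase of mitochondria, rose by 0.64 on the log2 scale (SE 0.14, edgeR adjusted p = 0.0118). CYB5R3, a cytochrome b5 reductase, rose by 0.76 (SE 0.19, edgeR adjusted p = 0.0221) and lost its call without Sustanon pig 5, 19 or 20. NQO1, a quinone reductase, fell, at -1.34 (SE 0.32, edgeR adjusted p = 0.0169). In castrated boars and sows 1 of the 13, MAOB, rose and 1, NQO1, fell, and 18 and 6 of the 24 fits that left out 1 pig lost these calls.

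Among factors reported to act on family genes, 10 of 16 were tested, and 1 rose, 1 fell and 8 did not pass, with a median of -0.04 and a background of 5.07%. AHR, the aryl hydrocarbon receptor, rose from 59.4 CPM in controls (SD 23.8, n = 8) to 159 CPM with Sustanon (SD 58.3, n = 8), a log2 fold change of 1.42 (SE 0.28, edgeR adjusted p = 0.0114). ESR1, an oestrogen receptor, fell from 12.7 to 7.42 CPM, at -0.77 (SE 0.20, edgeR adjusted p = 0.0265), a call lost in 6 of the 24 fits that left out 1 pig. Both also passed in castrated boars and sows, at 1.54 for AHR (edgeR adjusted p = 0.000343) and -0.94 for ESR1 (edgeR adjusted p = 0.00582). With Myodin over all pigs no list member passed, as for all genes (0%). Without control libraries 15, 16 and 18, 0 genes passed with Sustanon over all pigs by edgeR (1199 had an unadjusted p under 0.05), these list members included.

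Genes whose level ran most like that of each member are given as a description, over 24 libraries that share treatments and over 6970 named genes. For FMO1, Pearson's r of log2 CPM was highest with USP7 (0.94), a deubiquitinase, SORD (0.94), which makes fructose from sorbitol, DENND3 (0.93), CROT (0.93), a peroxisomal carnitine acyltransferase, and TET3 (0.92), which oxidizes methylcytosine. For FMO5 it was highest with HSD17B2 (0.93), which inactivates testosterone and oestradiol, ACAA2 (0.93), a mitochondrial thiolase, CYP2A19 (0.92), a cytochrome P450 of pig liver, and TMEM243 (0.92). The 99th percentile over all genes was 0.82 for FMO1 and 0.76 for FMO5.

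After the mean of each treatment and testes group was taken out, different names led, apart from SORD, ACAA2 and CYP2A19. The residuals of FMO1 ran most like those of SORD (r = 0.90), MGST3 (0.88), a microsomal glutathione transferase, LIPC (0.86), hepatic lipase, F9 (0.86), a coagulation factor, and AQP9 (0.84), a glycerol channel. The residuals of FMO5 ran most like those of CYP1A2 (0.89), a cytochrome P450 induced through AHR, METTL7B (0.84), ACAA2 (0.81), SELENBP1 (0.78) and CYP2A19 (0.78). The members themselves had an r of -0.72 over the 24 libraries and -0.20 in the residuals.

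Markers of other cell types were measured beside these results. No tested member of the lists for hepatocytes (4 genes), bile duct (2), endothelium (3), macrophages (4), lymphocytes (4), stellate cells and stroma (3) or red blood cells (3) passed with Sustanon over all pigs. Summed hepatocyte markers ran from 108392 to 163661 TPM in controls and from 125550 to 183528 with Sustanon, and summed macrophage markers from 655 to 868 and from 588 to 887 TPM. Summed bile duct markers ran from 13.6 to 20.7 TPM in controls and from 8.93 to 22.8 with Sustanon. Endothelial markers ran from 28.6 to 65.0 and from 28.4 to 46.3 TPM, lymphocyte markers from 100.5 to 172 and from 122 to 165, and stromal markers from 42.5 to 115 and from 58.2 to 115 in the same groups. Red blood cell markers ran from 2593 to 8266 TPM in controls and from 1444 to 7896 with Sustanon. The 4 kidney tubule markers, whose tissue also makes FMO1, summed to at most 1.13 TPM in any liver. For each of these lists the ranges of controls and Sustanon pigs overlapped. With Myodin, summed bile duct markers ran from 7.50 to 13.49 TPM, just below the lowest control at 13.6 TPM. This sum holds 2 of 5 listed genes and was not tested. CPM of Myodin and control pigs did not overlap for 0.0121% of tested genes over all pigs. Macrophage markers ran from 827 to 1463 TPM with Myodin, overlapping the top of the control range. Hepatocyte markers ran from 76807 to 170884 TPM with Myodin, endothelial markers from 27.4 to 58.6, lymphocyte markers from 135 to 199.97, stromal markers from 41.2 to 104 and red blood cell markers from 489.96 to 7968, all overlapping controls. The part of these markers in the FMO1 and FMO5 values was not tested.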

How the data were processed

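RNAseq of liver was available for 24 pigs. Per the study's methods, libraries were stranded and made from poly-A RNA, reads were trimmed with Skewer and mapped in docker4seq, and the submitters' processing notes name STAR 2.5, FastQC, DESeq2 and Sscrofa11.1. The counting tool is not given in the sources used here. The authors deposited raw counts per gene, and, for each library, log2 values of TPM plus a pseudocount of 1, which were converted back to TPM. Groups were taken from the sample titles. Gene symbols came from the tables, where 3779 genes have none, and 359 of these were named from a reference table.

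Counts were filtered with filterByExpr, scaled with TMM and tested two-sided in edgeR 4.0.16 (R 4.3.3) by quasi-likelihood, in 1 fit of the 3 treatments and 1 of 6 groups (3 treatments, uncastrated boars apart from castrated boars and sows). P-values were adjusted over all tested genes by Benjamini-Hochberg, and an adjusted p under 0.05 passed the test. Intervals are 95% intervals of the log2 fold change. log2 CPM used a prior count of 2. Permutation tests ran in scipy 1.17.1. Scripts were tested on simulated data. The members and lists were chosen with earlier results of these data known. Genes named are the FMO genes, from each list up to 4 members that passed with Sustanon (otherwise up to 2 with the smallest p), and for each member the 5 most alike genes among those whose log2 CPM averaged 1 or more. Some genes that this rule names are not reported here. Alternatives were DESeq2 1.42.0, RLE scaling, no count filter, castration class in the model, only the groups compared, limma 3.58.1 on the deposited log2 values, castrated boars only, a pseudocount of 0.1, log2 CPM for TPM, each pig left out, and control libraries 15, 16 and 18 left out. Each pig gave 1 library, and counts carry no molecular identifiers.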

Additional observations from a re-analysis of the deposited data

How the results depend on the processing

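The rise of FMO1 and the fall of FMO5 with Sustanon, over all pigs and in castrated boars and sows, kept their direction in every alternative run and passed in each of them, with exceptions without control libraries 15, 16 and 18. There FMO1 measured 2.27 and FMO5 -1.43 over all pigs (edgeR adjusted p = 0.116 for both), and FMO1 measured 2.28 in castrated boars and sows (0.0710). The fit then held fewer samples, with 5 controls. Leaving out 1 pig at a time gave 2.17 to 2.504 for FMO1 and -1.75 to -1.45 for FMO5 over all pigs, with edgeR adjusted p of at most 0.0311. No paired analysis was possible because each pig has its own number and the groups share none. Depth did not limit the members, with at least 4541 counts of FMO1 and 1183 of FMO5 per library, but it did limit FMO2. Where a call below changed, the cause was not tested.

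Values of FMO5 that passed in an alternative only included, with DESeq2, -0.92 for Sustanon against Myodin in castrated boars and sows. That difference also passed in edgeR without Myodin boar 22 or 23, uncastrated boars that share the fit but belong to neither group compared. For uncastrated boars against the other controls, FMO5 passed at -1.34 with DESeq2 and at -1.33 with only the groups compared. With castration class in the model, Sustanon against Myodin over all pigs measured 1.84 for FMO1 and -0.92 for FMO5, and both passed. Among castrated boars and sows only, FMO1 minus FMO5 per pig differed by 0.63 between Myodin and control and passed (exact permutation, adjusted over 3 comparisons p = 0.0130), as it did at 0.67 (p = 0.0357) with control libraries 15, 16 and 18 also left out, an alternative chosen after seeing the data.

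Counts of genes that passed with edgeR were 420, 0 and 55 over all pigs (Sustanon and Myodin against control, then Sustanon against Myodin), 475, 8 and 213 in castrated boars and sows, 125 for uncastrated boars against other controls, and 4 and 8 for the interactions of Sustanon and Myodin. DESeq2 gave 637, 1 and 276 over all pigs, 66 for Myodin and 479 for Sustanon against Myodin in castrated boars and sows, 253 for uncastrated boars, and 36 and 92 for the interactions. Without control libraries 15, 16 and 18 the counts were 0 for Sustanon and 29 for Sustanon against Myodin over all pigs, 124 and 0 for Sustanon and Myodin in castrated boars and sows, 34 for uncastrated boars, and 2 and 3 for the interactions. No count filter gave 36 for Sustanon against Myodin over all pigs and 5 for Myodin in castrated boars and sows. Castration class in the model gave 390, 5 and 136 for Sustanon against Myodin over all pigs, Myodin in castrated boars and sows, and Sustanon against Myodin there. Only the groups compared gave 9, 15 and 137 for the same, and 193 for uncastrated boars. limma gave 4 for Myodin in castrated boars and sows, and 7 and 13 for the interactions. Castrated boars alone as the reference gave 64 for uncastrated boars.

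With 1 pig left out, counts ran from 198 to 613 for Sustanon and 0 to 541 for Sustanon against Myodin over all pigs. In castrated boars and sows they ran from 295 to 560 for Sustanon, 3 to 17 for Myodin and 57 to 441 for Sustanon against Myodin. They ran from 6 to 171 for uncastrated boars, 0 to 6 for the Sustanon interaction and 2 to 192 for the Myodin interaction. In the same fits, Sustanon against Myodin ran from 1.18 to 2.09 for FMO1 over all pigs, from -1.14 to -0.81 for FMO5 in castrated boars and sows, and from 2.24 to 3.04 for FMO1 minus FMO5 per pig.

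Values near 0 changed sign. In castrated boars and sows with Myodin, FMO1 ran from -0.26 to 0.014 with 1 pig left out. The Sustanon interaction of FMO1 ran from -0.15 to 0.51, and the Myodin interaction of FMO5 from -0.33 to 0.66, or -0.058 with limma. For FMO4, Sustanon over all pigs ran from -0.065 to 0.10 (-0.00164 with no count filter, -0.017 without the 3 control libraries) and Myodin from -0.20 to 0.031. In castrated boars and sows FMO4 ran from -0.23 to 0.011 for Sustanon, from -0.25 to 0.037 for Myodin and from -0.12 to 0.14 for Sustanon against Myodin (0.000918 with castration class in the model, 0.022 with limma), and its Myodin interaction was -0.047 with limma. For FMO2, uncastrated boars against other controls ran from -1.71 to 0.91, the Sustanon interaction from -0.043 to 2.58 and the Myodin interaction from -0.67 to 1.94.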
